A study of Mus musculus with 4 samples.

Results

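The genes described here were measured in mouse lung 10 days into bleomycin treatment. They are the cytosolic aminoacyl-tRNA synthetases, the enzymes of serine and one-carbon synthesis, and further genes linked to the stress transcription factor ATF4, Atf4 included. They were taken by symbol from a given list, and all 37 were found among the 17691 genes of the deposited table: 18 synthetases, 8 serine and one-carbon enzymes and 11 other ATF4 genes. This list and the further lists used below were chosen with earlier results of these data known. The bleomycin group and the PBS group are whole lungs taken at day 10, all of them from C57BL/6 wild-type animals between 6 and 8 weeks old. Bleomycin, a DNA-breaking drug that provokes lung injury and fibrosis, was given through the nose, and PBS, a buffer, was given in the same way to the other group. The submitters describe sequencing in triplicate and 4 groups of treated mice, whereas 2 libraries of each treatment were analysed here, so what a library stands for is not settled. The values are FPKM, fragments scaled to transcript length and to the library total.

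A tRNA synthetase loads an amino acid onto its tRNA, so every cell that makes protein needs the full set. The serine route starts from a glycolysis intermediate, and serine then gives its side-chain carbon to folate, which carries it to purines, thymidylate and methionine. When amino acids run short or the endoplasmic reticulum is overloaded, kinases phosphorylate eIF2, general translation slows and the mRNA of Atf4 is translated more, so the Atf4 mRNA level need not follow the protein. ATF4 then activates genes of amino acid synthesis, uptake and loading, together with stress regulators such as Ddit3 and Trib3. In lung fibrosis this programme is known from fibroblasts, which draw on serine and glycine to make collagen.

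The libraries held an estimated 17200000 and 17800000 fragments with bleomycin and 17000000 and 17100000 with PBS. The bleomycin libraries lay farther apart, with a median SD of 0.115 on the log2 scale against 0.0637 for the PBS libraries. The labels do not say that the libraries of a group came from separate animals, so the limma p-values measure only the spread between these libraries, which may be technical. The Y-linked gene Eif2s3y was listed at 0 in both bleomycin libraries, against 26.43 and 28.86 FPKM in the PBS libraries, so treatment and sex cannot be told apart in any difference given here. Of the 37 members, 0 lie on chromosome X or Y. Marker lists of recruited macrophages (11 of 14 genes rose) and of cycling cells (10 of 10 rose) were higher with bleomycin, and those of hepatocytes (8 of 8 fell) and endothelium (4 of 8 fell) were lower. Erythroid markers (4 of 4 tested genes fell) and club and secretory cell markers (2 of 6 fell) were lower too. In bulk lung, fewer cells of a type and less RNA per cell cannot be told apart.

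The 37 genes did not move as a block. Psat1 and Mthfd2, enzymes of serine synthesis and of mitochondrial folate metabolism, rose 2.67-fold and 3.47-fold, and the synthetase genes Gars and Vars rose 1.34-fold and 1.33-fold. Glul, Cbs, Atf5 and Ddit3 fell, being 2.01-fold and 2.31-fold lower for Glul and Cbs and 1.57-fold and 1.51-fold lower for Atf5 and Ddit3. A gene was called where the adjusted p of limma was under 0.05, and the other 29 genes, Atf4 itself and Asns among them, were not called. Of the 12986 genes tested, 16.3% were called, 8.59% as higher and 7.69% as lower. Of the 37 members, 4 rose and 4 fell, 10.8% in each direction, which is near the share of all genes. In 28 of the 37 (75.7%) the groups did not overlap, with bleomycin higher in 21 and lower in 7, beside 66.5% of all tested genes, 31.5% of them higher and 35.0% lower. Leaving out a single library changed the number of calls among members and among all tested genes, as the last section gives. The median log2 change of the 37 then lay between 0.11 and 0.17, beside 0.12 with all 4 libraries. The median log2 change was 0.18 over the synthetases, 0.10 over the serine and one-carbon enzymes and -0.34 over the other ATF4 genes, beside -0.02 over all genes tested. All 37 were above 0 in every library and entered the test.

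**Figure D1:**
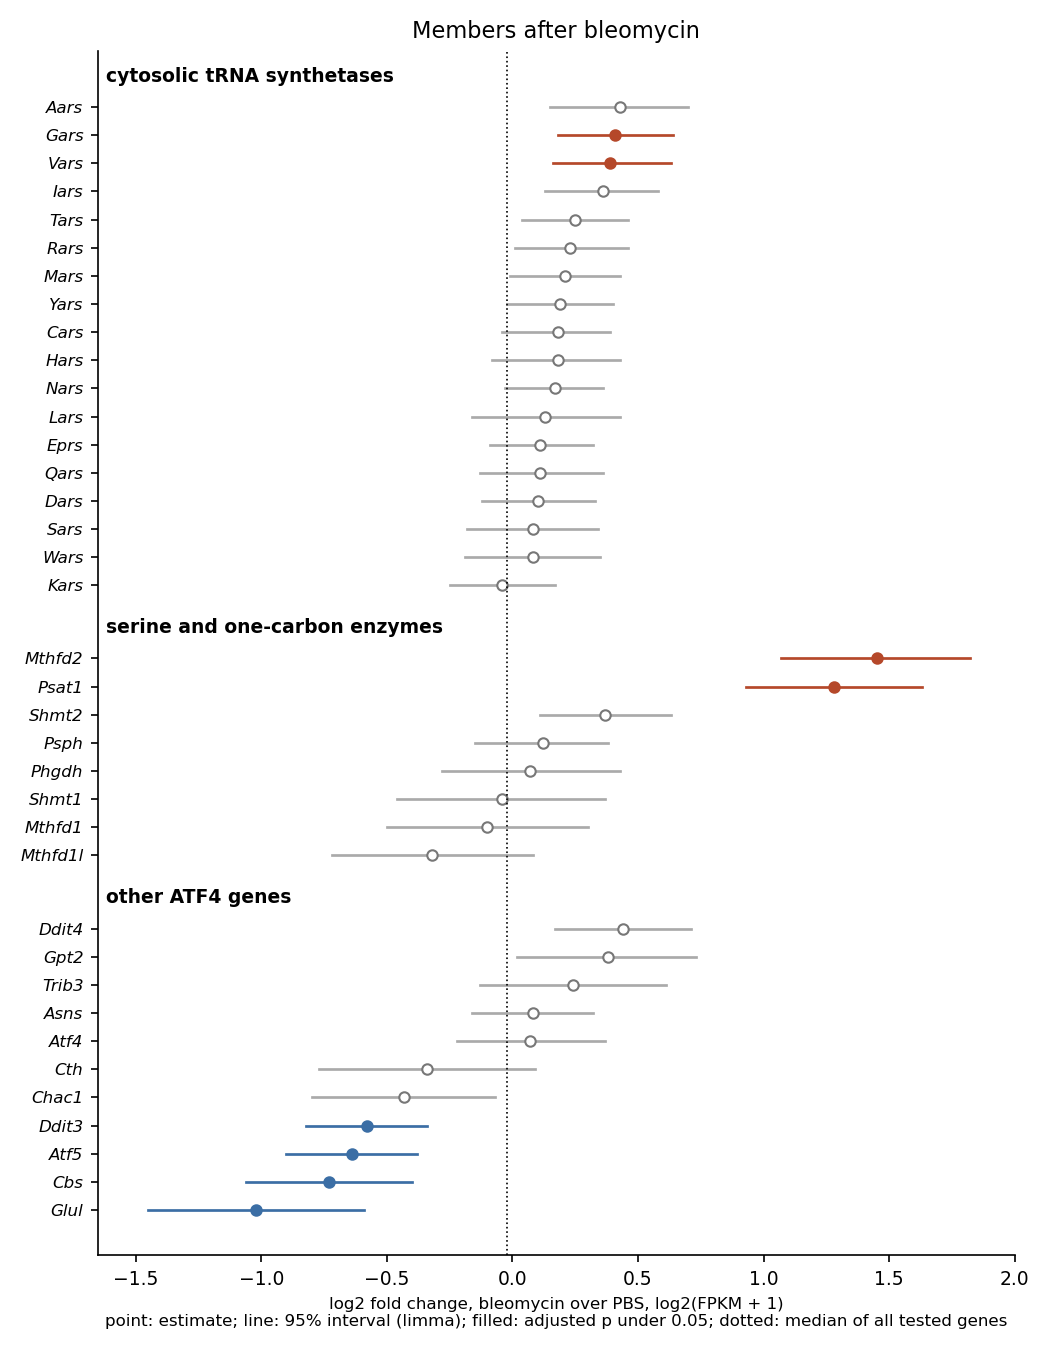
Log2 fold change of bleomycin over PBS for each of the 37 genes on the log2(FPKM + 1) scale, with lines for the 95% interval from limma, filled points for genes with an adjusted p under 0.05 and a dotted line at the median of all tested genes. Mthfd2 (1.45) and Psat1 (1.28) stand far to the right, Glul (-1.02) to the left, and 17 of the 18 synthetases lie right of 0 by at most 0.43.

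Most synthetases stood slightly higher with bleomycin, and few of the differences passed the test. The estimate was positive for 17 of 18 genes, and for 14 of 18 (77.8%) both bleomycin libraries lay above both PBS libraries, beside 31.5% of all tested genes. Only 2 (11.1%) passed the test as higher and 0 fell, beside 8.59% and 7.69% of all tested genes. The median log2 change of the 18 stayed between 0.17 and 0.20 when single libraries were left out. Summed over the 18 genes, the level was 528 and 529 FPKM with bleomycin, against 457 and 471 FPKM with PBS, so the sums did not overlap.

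Gars, which encodes the glycine enzyme of cytosol and mitochondria (gene 353172, GRCm38.p6 chromosome 6, 55038001 to 55079504), stood at 41.64 and 46.37 FPKM in the bleomycin libraries and at 32.68 and 33.08 FPKM in the PBS libraries. The log2 fold change was 0.41 ± 0.09 (SE, adjusted p = 0.0445 by limma). Vars, the valine enzyme (gene 22321, chromosome 17, 35000907 to 35016329), stood at 23.87 and 21.68 FPKM with bleomycin and at 17.28 and 16.87 FPKM with PBS. Its log2 fold change was 0.39 ± 0.09 (adjusted p = 0.0481 by limma). Both calls lie close to the threshold: without a filter on low genes the adjusted p was 0.0603 for Gars and 0.0646 for Vars by limma. Without PBS replicate 1 and without PBS replicate 2, the log2 change was 0.40 and 0.42 for Gars and 0.41 and 0.38 for Vars.

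Aars, the alanine enzyme, had the largest estimate of the synthetases and did not pass. It stood at 30.13 and 34.91 FPKM in the bleomycin libraries, against 22.91 and 24.92 FPKM in the PBS libraries, and its log2 difference of 0.43 had a 95% interval of 0.15 to 0.70 (adjusted p = 0.0603 by limma). Iars, the isoleucine enzyme, stood at 15.42 and 16.05 FPKM with bleomycin and 12.41 and 11.76 FPKM with PBS (log2 difference 0.36, adjusted p = 0.0552 by limma). For both genes the groups were separate. With the replicate number as a block the adjusted p by limma was 0.0642 for Aars and 0.101 for Iars. With TPM rescaling it was 0.0467 for Aars and 0.0394 for Iars, so both passed there. Omitting single libraries left log2 differences of 0.32 to 0.53 for Aars and 0.32 to 0.39 for Iars.

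In the next group, Tars (threonine), Rars (arginine), Mars (methionine), Yars (tyrosine), Cars (cysteine), Hars (histidine) and Nars (asparagine) had log2 differences of 0.25, 0.23, 0.21, 0.19, 0.18, 0.18 and 0.17. None of these 7 passed, although bleomycin and PBS libraries did not overlap for any of them. Tars, as an example, was at 21.32 and 21.76 FPKM with bleomycin and at 18.41 and 17.59 FPKM with PBS. Eprs, which joins the glutamate and proline enzymes in 1 protein, and Qars (glutamine) each had a difference of 0.11, and Dars (aspartate) one of 0.10, again with no overlap.

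The 4 other synthetase genes overlapped between groups. Wars, the tryptophan enzyme and an interferon-responsive gene, was the most abundant of the set, with 74.17 and 67.47 FPKM in bleomycin libraries and 62.83 and 71.11 FPKM in PBS libraries. Its 95% interval for the log2 difference ran between -0.19 and 0.35. Kars, the lysine enzyme, had 40.64 and 38.18 FPKM with bleomycin and 39.87 and 41.15 FPKM with PBS, and its interval ran between -0.25 and 0.17. Lars (leucine) was at 14.51 and 16.63 FPKM with bleomycin and at 13.27 and 14.97 FPKM with PBS. Sars (serine) was at 28.74 and 31.19 FPKM with bleomycin and at 26.62 and 30.14 FPKM with PBS. Over the 4 libraries, mean levels of the synthetases spread from 12.3 FPKM for Cars to 68.9 FPKM for Wars, a span far wider than any change between the groups.

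Of the synthetases, 8 belong to the multi-tRNA synthetase complex, a particle in which several of these enzymes are held together by scaffold proteins. This division was made after the values were seen. The 8 genes in the complex (Dars, Eprs, Iars, Kars, Lars, Mars, Qars and Rars) had a median log2 change of 0.12, with values between -0.04 for Kars and 0.36 for Iars. The 10 genes outside it had a median of 0.18, with values between 0.08 for Sars and 0.43 for Aars. The ranges overlap widely. Among the 6 further cytosolic genes, 2 rose (33.3%) and 0 fell, beside 8.59% and 7.69% of all tested genes. Without a filter on low genes limma called 0 of them, and 1 with the replicate number as a block or eBayes without trend. Eef1e1, a scaffold protein of the complex, was at 15.95 and 15.53 FPKM with bleomycin and 8.59 and 10.38 FPKM with PBS (log2 fold change 0.68 ± 0.12, adjusted p = 0.0256 by limma). Aimp2, another scaffold protein, was at 21.32 and 22.66 FPKM with bleomycin and 16.91 and 16.22 FPKM with PBS (0.39 ± 0.08, adjusted p = 0.0436 by limma).

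Of the 17 synthetases that serve mitochondria alone, limma called 0. At an unadjusted p under 0.05 there was 1 higher and 0 lower. Their median log2 change was -0.00, and it lay between -0.03 and 0.06 when single libraries were left out. Iars2, the highest of them, was at 14.22 and 18.30 FPKM with bleomycin and at 16.76 and 15.54 FPKM with PBS. Fars2 was at 9.24 and 9.39 FPKM with bleomycin and at 10.12 and 9.78 FPKM with PBS. Their summed level was 95.5 and 92.1 FPKM with bleomycin and 93.4 and 93.5 FPKM with PBS, so the small shift of the cytosolic set had no counterpart in these sums. The difference between the cytosolic and the mitochondrial set was not tested.

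ATF4 binds, as a dimer with CEBP proteins, an element whose core reads TGATGNAA. RefSeq promoter windows of GRCm38.p6, 250 bases before and 50 after an annotated start, were matched for 29 of the 37 genes and searched for this core on both strands. Of all 32851 windows of that length 3.97% held the core, as did 2.24% of those of tested genes. Among the synthetases it was found in 5 of 11 windows (45.5%): Aars, Gars, Iars, Tars and Yars. The other ATF4 genes had it in 3 of 11 windows (27.3%), those of Asns, Chac1 and Trib3, and the serine and one-carbon enzymes in 0 of 9. Matches are printed for 4 of these synthetases, since Gars, Iars and Tars are among the 5 synthetases with the largest estimates, and for the 3 other ATF4 genes. Each line gives 30 bases of the gene's strand, 5′ to 3′, with the core in capitals.
Gars, chr6:55037960-55037989, plus strand: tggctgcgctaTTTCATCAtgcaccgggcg
Iars, chr13:49682126-49682155, plus strand: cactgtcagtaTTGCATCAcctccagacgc
Tars, chr15:11399655-11399684, minus strand: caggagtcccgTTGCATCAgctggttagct
Yars, chr4:129189895-129189924, plus strand: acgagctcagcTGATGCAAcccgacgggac
Asns, chr6:7693214-7693243, minus strand: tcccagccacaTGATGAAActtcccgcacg
Chac1, chr2:119351038-119351067, plus strand: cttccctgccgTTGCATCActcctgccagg
Trib3, chr2:152344028-152344057, minus strand: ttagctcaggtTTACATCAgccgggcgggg

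Of these windows, only those of Yars and Asns hold the core in the direction of the gene, and in the others it lies on the opposite strand. The first capital lies 30 bases before the start in Gars, 15 before in Tars, 7 after in Iars, 3 after in Yars, 23 before in Asns, 193 before in Chac1 and 14 after in Trib3. The 250 bases before the start of Asns, a gene well known for this element, show it in its setting.
Asns, chr6:7693210-7693459, minus strand: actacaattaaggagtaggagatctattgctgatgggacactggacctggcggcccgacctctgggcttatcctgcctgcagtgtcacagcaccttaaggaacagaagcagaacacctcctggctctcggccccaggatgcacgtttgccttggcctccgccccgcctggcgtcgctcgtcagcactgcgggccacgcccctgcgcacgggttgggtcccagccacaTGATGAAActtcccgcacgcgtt

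The 5 synthetases with the core had log2 changes of 0.19 to 0.43, with a median of 0.36. The 6 without it (Dars, Eprs, Kars, Mars, Qars and Sars) had changes between -0.04 and 0.21, with a median of 0.11. The ranges touch, since Mars at 0.21 lies above Yars at 0.19. The 7 with no entry in the table ran between 0.08 and 0.39. Among the other ATF4 genes, Chac1, Asns and Trib3, with the core, had changes of -0.43, 0.08 and 0.24 (median 0.08). The 7 without it had changes between -1.02 and 0.44, with a median of -0.58, a range that takes in the first. No difference between genes with and without the core was tested. Psat1 and Mthfd2, with the largest rises, have no match in these windows. The Mthfd2 window, at 83317555 to 83317854, lies inside the gene span of 83305704 to 83326011. So does that of Eprs, at 185362794 to 185363093 in a span of 185361417 to 185428360. Other starts of these genes were not searched. A match describes letters only and shows neither binding nor use of the site.

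**Figure D2:**
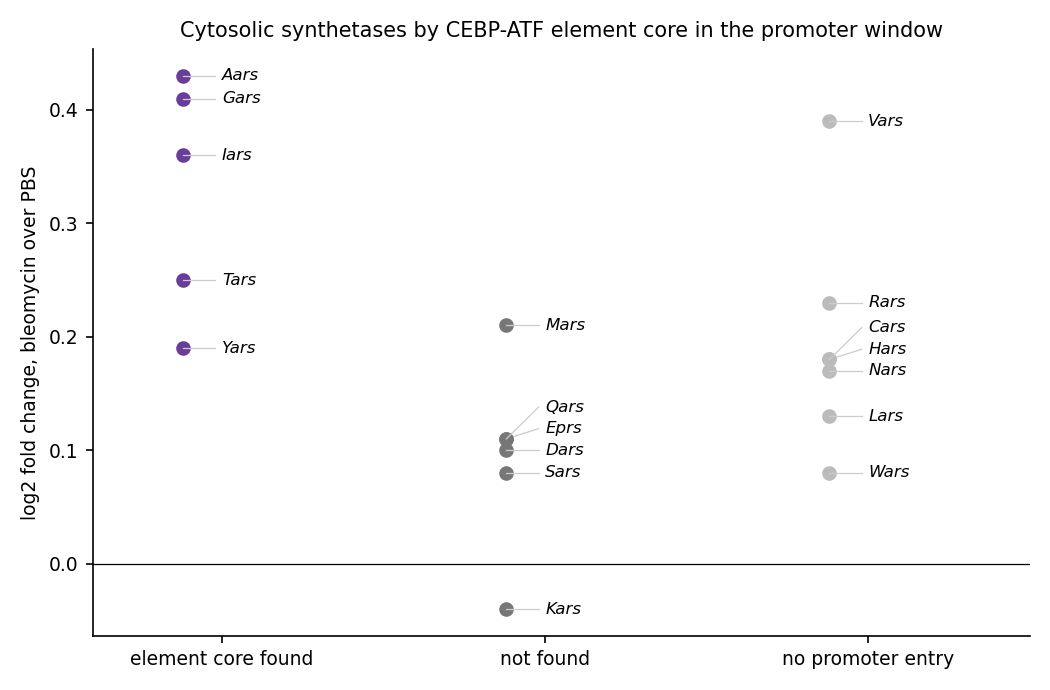
Log2 fold change of bleomycin over PBS for the 18 cytosolic synthetases, 1 point a gene, by whether the core of the CEBP-ATF element was found in the promoter window. The 5 genes with the core lie between 0.19 and 0.43 and the 6 without it between -0.04 and 0.21.

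Of the 8 serine and one-carbon enzymes, 2 rose (25%) and 0 fell, beside 8.59% and 7.69% of all tested genes. Of the 3 genes for serine synthesis, 1 rose and the others were not called. Psat1 encodes phosphoserine aminotransferase, the middle enzyme of serine synthesis (gene 107272, chromosome 19, 15905123 to 15925059). It stood at 14.88 and 18.52 FPKM in the bleomycin libraries, against 6.55 and 5.97 FPKM in the PBS libraries, or 16.7 ± 2.57 against 6.26 ± 0.41 FPKM (SD, n = 2 each). The groups lie far apart, and the log2 fold change was 1.28 ± 0.13 (SE, adjusted p = 0.0104 by limma), the 286th largest rise of 12986. Phgdh, the first and rate-setting enzyme, was at 7.68 and 8.02 FPKM with bleomycin and at 6.54 and 8.36 FPKM with PBS. Its groups overlapped, and the 95% interval of its log2 difference ran between -0.28 and 0.43. Psph, the last enzyme, was at 5.52 and 5.29 FPKM with bleomycin and at 4.76 and 5.05 FPKM with PBS, with an interval between -0.15 and 0.38.

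Of the 5 folate enzymes among the members, 1 rose, beside 8.59% of all tested genes. This was Mthfd2, the mitochondrial dehydrogenase and cyclohydrolase of embryonic and proliferating cells (gene 17768, chromosome 6, 83305704 to 83326011). It stood at 9.09 and 7.36 FPKM in bleomycin libraries and at 2.18 and 2.56 FPKM in PBS libraries, or 8.22 ± 1.22 against 2.37 ± 0.269 FPKM (SD, n = 2 each). The log2 fold change was 1.45 ± 0.14 (SE, adjusted p = 0.00979 by limma), the 205th largest rise of all tested genes. Shmt2, the mitochondrial enzyme that takes the carbon from serine, was at 12.82 and 12.85 FPKM with bleomycin and at 10.38 and 9.06 FPKM with PBS. The groups did not overlap, but the gene did not pass (log2 difference 0.37, adjusted p = 0.0725 by limma). Mthfd1l, which releases formate from mitochondria, was at 4.26 and 3.27 FPKM with bleomycin and at 4.56 and 5.30 FPKM with PBS, with an interval between -0.72 and 0.08.

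The cytosolic enzymes of the same pathway lay within the spread of the libraries. Shmt1 was at 3.31 and 2.55 FPKM with bleomycin and at 3.35 and 2.74 FPKM with PBS. Mthfd1, the cytosolic enzyme with 3 activities on folate, was at 15.27 and 20.40 FPKM with bleomycin and at 18.36 and 19.75 FPKM with PBS. Both genes overlapped between groups, and the bleomycin libraries of Mthfd1 lay farther apart than the groups did. Ratios within a library, which library scaling cannot move, showed the same contrast. Mthfd2 stood at 0.595 and 0.361 of the Mthfd1 level in bleomycin libraries, against 0.119 and 0.13 in PBS libraries. The Shmt2 to Shmt1 ratio was 3.87 and 5.04 with bleomycin and 3.1 and 3.31 with PBS, and that of Mthfd1l to Mthfd1 was 0.279 and 0.16 with bleomycin and 0.248 and 0.268 with PBS. The first pair of ratios separated the groups and the last did not. In 2 ratios added after the values were seen, Mthfd2 stood at 2.13 and 2.25 times the Mthfd1l level with bleomycin and at 0.478 and 0.483 of it with PBS. Psat1 stood at 1.94 and 2.31 times the Phgdh level with bleomycin and at 1 and 0.714 of it with PBS. The ratios are given as values, without a test.

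**Figure D3:**
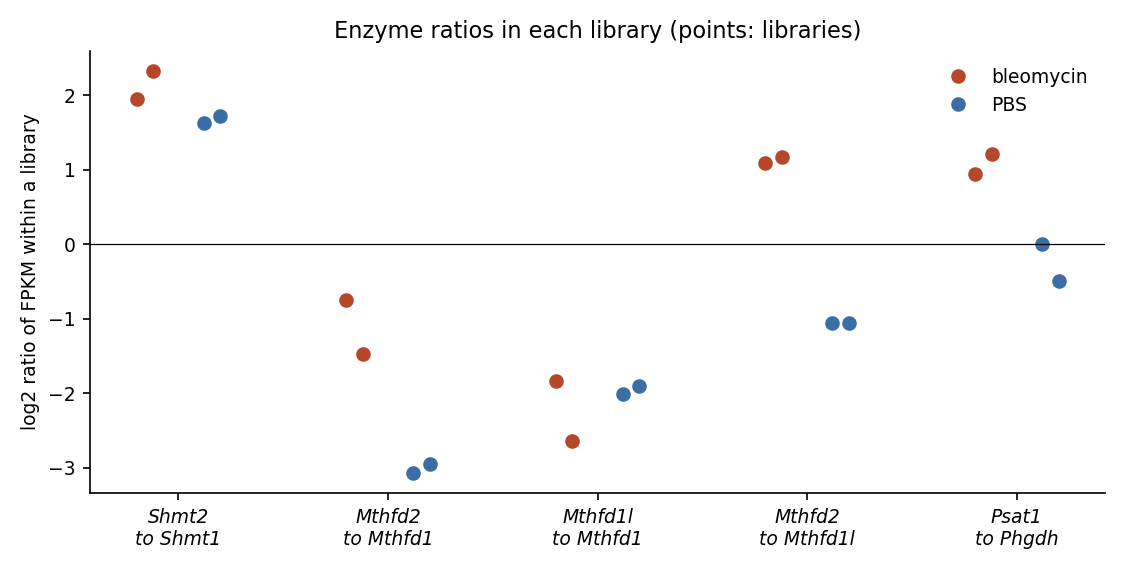
Log2 ratio of the FPKM of 2 enzymes within each library, 1 point a library, bleomycin left of PBS. Mthfd2 to Mthfd1 and Mthfd2 to Mthfd1l separate the groups most, by 1.90 and 2.19 on the log2 scale, and Mthfd1l to Mthfd1 overlaps.

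The rises of Psat1 and Mthfd2 went with other changes in the same libraries. Markers of cycling cells summed to 94.7 and 82.3 FPKM with bleomycin and to 19.8 and 20.5 FPKM with PBS, and 10 of 10 rose. Markers of recruited macrophages summed to 1978 and 1099 FPKM with bleomycin and to 313 and 352 FPKM with PBS. Fibroblast and myofibroblast markers summed to 1559 and 1798 FPKM with bleomycin and to 868 and 825 FPKM with PBS. Of these 9 markers, 6 rose and 1 fell. None of the markers in these lists was at 0 in both libraries of a group. Their part in the result was not tested. Among 20 further tested genes of the folate, glycine and methionine cycles, limma called 0, beside 8.59% of all tested genes called higher and 7.69% lower. With quantile normalization or upper quartile scaling 1 fell, and with eBayes without trend 1 rose. At an unadjusted p under 0.05, 2 stood higher and 2 lower, beside 2231 and 2349 of all 12986 genes tested. The median log2 change of the 20 was 0.05, and it lay between 0.01 and 0.06 when single libraries were left out. Mat2a, which makes S-adenosylmethionine, was at 85.12 and 74.02 FPKM with bleomycin and at 105.26 and 111.78 FPKM with PBS (adjusted p = 0.0518 by limma). Mat2b, its regulatory partner, was at 36.21 and 37.22 FPKM with bleomycin and at 47.80 and 43.35 FPKM with PBS.

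Among the other ATF4 genes, 0 of 11 rose and 4 fell (36.4%), beside 8.59% and 7.69% of all tested genes. Their median log2 change lay between -0.50 and -0.19 when single libraries were left out, beside -0.34 with all 4 libraries. Atf4 itself was at 130.29 and 119.33 FPKM in the bleomycin libraries and at 109.85 and 127.77 FPKM in the PBS libraries. The groups overlapped, and the 95% interval of its log2 difference ran between -0.22 and 0.37. Asns, asparagine synthetase and a textbook ATF4 target, was at 14.41 and 13.62 FPKM with bleomycin and at 12.60 and 13.76 FPKM with PBS. Its interval ran between -0.16 and 0.32.

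Atf5, a related transcription factor linked to mitochondrial stress (gene 107503, chromosome 7, 44812256 to 44816658), fell. It stood at 59.89 and 52.35 FPKM with bleomycin, against 89.70 and 86.22 FPKM with PBS (log2 fold change -0.64 ± 0.10, SE, adjusted p = 0.0211 by limma). Ddit3, which encodes the stress factor CHOP (gene 13198, chromosome 10, 127290793 to 127296291), stood at 26.16 and 23.12 FPKM with bleomycin and at 37.30 and 37.33 FPKM with PBS. Its log2 fold change was -0.58 ± 0.09 (adjusted p = 0.0227 by limma). Both factors were lower in each bleomycin library than in either PBS library.

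Of the stress genes downstream, Trib3, a pseudokinase that restrains ATF4, was low in all libraries, with 2.78 and 3.56 FPKM in bleomycin libraries and 2.56 and 2.47 FPKM in PBS libraries (log2 difference 0.24, adjusted p = 0.292 by limma). Chac1, which degrades glutathione and responds to ATF4 and CHOP, was at 2.60 and 3.38 FPKM with bleomycin and at 4.34 and 4.39 FPKM with PBS (-0.43, adjusted p = 0.102 by limma). Ddit4, an inhibitor of the growth kinase mTORC1 that glucocorticoids, low oxygen and p53 also induce, was at 36.49 and 36.79 FPKM with bleomycin and at 24.76 and 28.99 FPKM with PBS (0.44, adjusted p = 0.0528 by limma). The groups were separate for all 3 genes, Chac1 lower and the others higher with bleomycin, and none passed. With TPM rescaling Ddit4 did pass (adjusted p = 0.0336 by limma).

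The other 4 amino acid enzymes split. Glul, glutamine synthetase (gene 14645, chromosome 1, 153899929 to 153909723), stood at 136.86 and 101.72 FPKM in bleomycin libraries, against 248.92 and 231.66 FPKM in PBS libraries. Its log2 fold change was -1.02 ± 0.16 (SE, adjusted p = 0.023 by limma), the 372nd largest fall of all tested genes. Cbs, the first enzyme that turns homocysteine into cysteine (gene 12411, chromosome 17, 31612623 to 31637233), stood at 1.01 and 1.02 FPKM with bleomycin and at 2.29 and 2.40 FPKM with PBS. These levels correspond to about 43 and 45 estimated fragments with bleomycin and 97 and 102 with PBS. The log2 fold change was -0.73 ± 0.13 (adjusted p = 0.0272 by limma), while the ratio of means without the pseudocount was 0.433.

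Cth, the next enzyme of that route, was at 1.35 and 1.91 FPKM with bleomycin and at 2.15 and 2.49 FPKM with PBS (-0.34, adjusted p = 0.211 by limma). Gpt2, mitochondrial alanine transaminase, went the other way without passing, at 2.89 and 3.27 FPKM with bleomycin and 2.34 and 1.95 FPKM with PBS (0.38, adjusted p = 0.126 by limma). Glul, Cbs and Cth are also abundant in liver, and hepatocyte markers summed to 9.3 and 6.33 FPKM with bleomycin and to 99.1 and 93.8 FPKM with PBS, with 8 of 8 fallen. None of these markers was at 0 in both libraries of a group. The part of hepatocyte transcripts in the falls was not tested. Endothelial markers summed to 1285 and 1257 FPKM with bleomycin and to 1745 and 1811 FPKM with PBS. Erythroid markers summed to 1832 and 1276 FPKM with bleomycin and to 4153 and 5451 FPKM with PBS. Club and secretory cell markers summed to 19981 and 20404 FPKM with bleomycin and to 57041 and 43101 FPKM with PBS. The part of these cell types was not tested either.

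**Figure D4:**
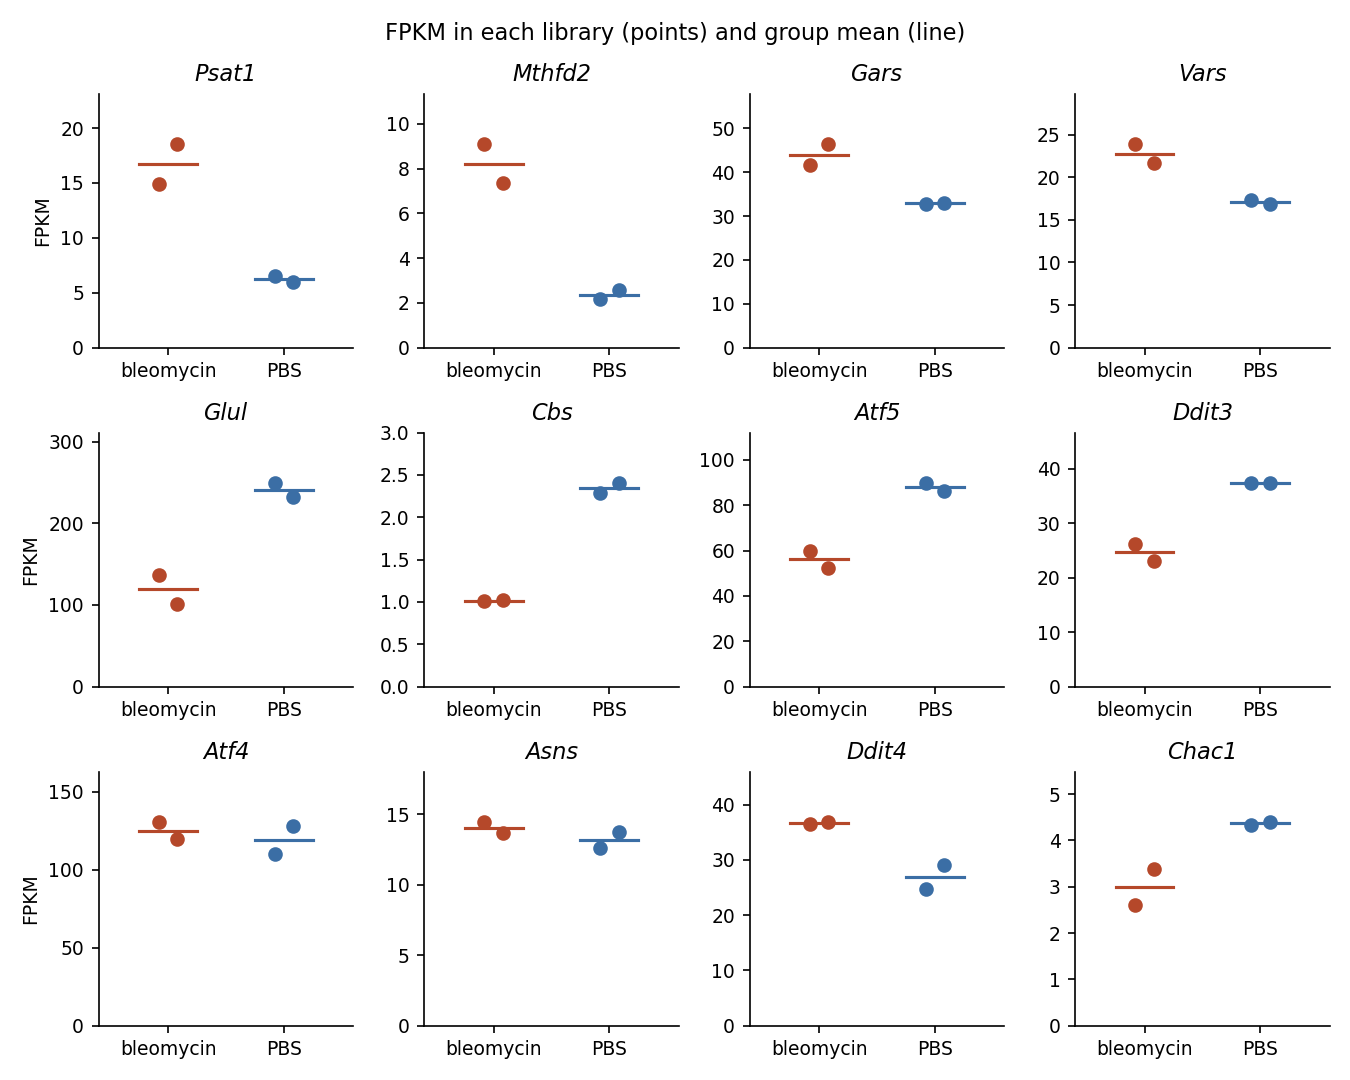
FPKM of 12 of the genes in each library, with bleomycin left of PBS, points for libraries and lines for group means, each axis starting at 0. Psat1, Mthfd2, Gars and Vars are higher in both bleomycin libraries, Glul, Cbs, Atf5 and Ddit3 lower, and Atf4 and Asns overlap.

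Neighbouring parts of the stress response were read from further lists, chosen with earlier results of these data known. Of 10 genes for eIF2, its kinases and their regulators, 1 rose (10%) and 0 fell, beside 8.59% and 7.69% of all tested genes. Eif2s1, the eIF2 subunit that the kinases phosphorylate, was at 20.62 and 17.64 FPKM with bleomycin and at 13.06 and 13.31 FPKM with PBS (0.50 ± 0.11, adjusted p = 0.0411 by limma). Without a filter on low genes, and with the replicate number as a block, 0 of the 10 were called. The median log2 change of the list was -0.01, and it lay between -0.04 and 0.03 when single libraries were left out. Ppp1r15a, which brings the phosphatase to eIF2 and is itself an ATF4 target, was at 24.55 and 26.04 FPKM with bleomycin and at 30.96 and 31.59 FPKM with PBS. The kinase gene Eif2ak1 was at 21.59 and 22.53 FPKM with bleomycin and at 22.54 and 21.44 FPKM with PBS.

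Of 15 further ATF4-linked genes that could be tested, 6 rose (40%) and 1 fell (6.67%), beside 8.59% and 7.69% of all tested genes. Their median log2 change was 0.30, beside -0.02 over all genes tested. Without a filter on low genes 4 rose and 0 fell. Omission of single libraries put the median between 0.23 and 0.54. The gene that fell was Jdp2, at 21.18 and 21.76 FPKM with bleomycin and 28.67 and 35.10 FPKM with PBS (-0.54 ± 0.12, adjusted p = 0.0452 by limma). Gdf15, a secreted stress hormone that p53 also drives, was at 9.55 and 6.94 FPKM with bleomycin and at 0.69 and 1.2 FPKM with PBS (2.25 ± 0.21, adjusted p = 0.00919 by limma). Aldh18a1, the first enzyme of proline synthesis, was at 9.0 and 8.48 FPKM with bleomycin and at 3.02 and 3.47 FPKM with PBS (1.20 ± 0.11, adjusted p = 0.00895 by limma). Got1, cytosolic aspartate transaminase, and Stc2, a secreted glycoprotein, rose by 0.62 ± 0.09 and 0.80 ± 0.18 (adjusted p = 0.0203 and adjusted p = 0.0497 by limma).

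Amino acid transporter genes went both ways, with 1 risen and 1 fallen of 9 tested (11.1% each), beside 8.59% and 7.69% of all tested genes. Slc7a5, the carrier of large neutral amino acids, was at 6.71 and 7.59 FPKM with bleomycin and at 2.54 and 3.31 FPKM with PBS (1.06 ± 0.14, adjusted p = 0.0171 by limma). Slc1a5, a glutamine carrier, was at 53.60 and 44.93 FPKM with bleomycin and at 90.39 and 101.90 FPKM with PBS (-0.95 ± 0.12, adjusted p = 0.0151 by limma). Each of these separated the groups. Slc7a11, which the filter left out of the test, was at 1.29 and 1.05 FPKM with bleomycin and at 0.14 and 0.13 FPKM with PBS. Without a filter on low genes the list had 2 risen genes and 1 fallen. Its median log2 change was -0.16, and it lay between -0.31 and -0.02 when single libraries were left out.

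Among 19 chaperones and sensors of the endoplasmic reticulum, 7 rose (36.8%) and 1 fell (5.26%), beside 8.59% and 7.69% of all tested genes. Their median log2 change was 0.28. Sdf2l1, a chaperone cofactor, was at 31.28 and 31.68 FPKM with bleomycin and at 13.88 and 14.78 FPKM with PBS (1.08 ± 0.08, adjusted p = 0.00626 by limma). Calr (calreticulin) and Hspa5 (the chaperone BiP) rose by 0.57 ± 0.11 and 0.53 ± 0.11 (adjusted p = 0.0324 and adjusted p = 0.0394 by limma). Herpud1, a degradation factor that also responds to ATF4, fell, with 90.07 and 86.36 FPKM with bleomycin and 142.08 and 141.02 FPKM with PBS (-0.68 ± 0.08, adjusted p = 0.013 by limma). With the replicate number as a block this list had 2 risen and 1 fallen gene, and without a filter on low genes 3 and 1. Its median log2 change lay between 0.14 and 0.41 when single libraries were left out.

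**Figure D5:**
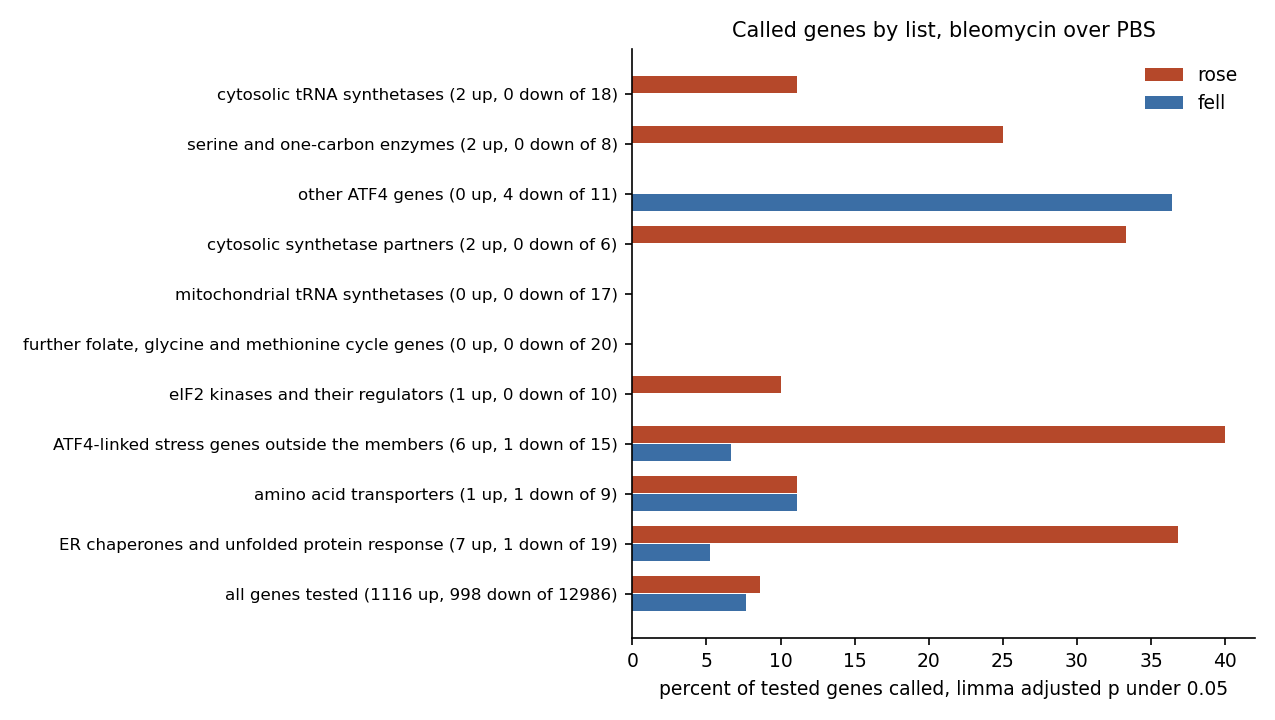
Percent of the tested genes of each list that limma called risen or fallen at an adjusted p under 0.05, with the counts in the labels and all tested genes in the last row. Among called genes, the other ATF4 genes have falls only (4 of 11), while the further ATF4-linked genes and the endoplasmic reticulum list have mostly rises (6 of 15 and 7 of 19). The lists were chosen with earlier results of these data known.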

How the data were processed

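RNA of whole lung was measured in 2 bleomycin and 2 PBS libraries, grouped by title. The deposited table holds FPKM, which the authors computed, per the file headers. The submitters' processing notes name Bowtie2, HISAT, mm10 and GRCm38. What each was used for, and in which version, is not given in the sources used here. Of the 17692 rows, 1 had no name and was dropped. For 27 rows whose symbol had become a date, the symbol was recovered by transcript accession. The GRCm38.p6 gene table held 16961 of the 17691 symbols. Depth was estimated from low FPKM values (0.03 to 0.3) of genes with 1 transcript of 300 to 1000 bases, as the depth at which most values came within 0.15 of a whole number of fragments (75.0% to 78.1%). It rests on annotated transcript lengths, and no count model was run.

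limma 3.58.1 (R 4.3.3, eBayes with trend, two-sided) was run on log2(FPKM + 1) for the 12986 genes whose mean over the 4 libraries reached 1 FPKM. P-values were adjusted by Benjamini-Hochberg over all of these, with a threshold of 0.05. The pseudocount makes fold changes of low genes too small, and folds given without log2 are ratios of mean FPKM. Residual degrees of freedom were 2 and prior ones 2.76, and the function was tested on simulated data. Alternatives were other pseudocounts and filters, 3 scalings, other eBayes settings, blocking on replicate number, and omission of single libraries. The members and lists were chosen with earlier results of these data known. All 37 members are named. From a further list, at most 4 called genes are named by size of change. If fewer than 2 were called, the 2 most abundant ones are named also. Jdp2, the 1 fallen gene of its list, and Slc7a11, left out by the filter, are named besides. Reads of near-identical copies may have been split by the authors' counting. The labels give no batch. The promoter sequence of Aars is not reported here. Tables were made in Python 3.11.15 with pandas 2.3.3.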

Additional observations from a re-analysis of the deposited data

How the results depend on the processing

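With 2 libraries a group, single libraries set the counts. Leaving out 1 library moved the called genes between 0 and 5485, against 2114 with all 4. Over the members called the range was 0 to 16 for all 37, 0 to 5 for the synthetases, 0 to 4 for the serine and one-carbon enzymes and 0 to 7 for the other ATF4 genes. The 0 came from leaving out either PBS library, where limma called no gene and 1120 genes (without PBS replicate 1) and 1143 genes (without PBS replicate 2) were higher at an unadjusted p under 0.05. Leaving out bleomycin replicate 1 gave 5485 and replicate 2 gave 4351. The 2 called synthetases became 0 without a filter, 0 with eBayes without trend, 1 with quantile normalization, 1 with upper quartile scaling and 4 with TPM rescaling. Psat1, Mthfd2, Glul, Atf5 and Ddit3 passed under every setting that kept all 4 libraries.

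Same-numbered libraries did not deviate together (correlation 0.02 over 12986 genes). With 2 libraries a group this cannot show whether they were paired, and the labels state no pairing. With the replicate block 5 of the 37 members were called, 0 of them synthetases, and Gars, Vars and Cbs were lost (adjusted p = 0.0741, 0.0774 and 0.0548 by limma).

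A library left alone in its group was assumed to vary like the other group. Only uncalled genes turned direction: Kars and Shmt1 with TPM rescaling (0.03 and 0.01), Kars and Shmt1 without bleomycin replicate 2 (0.00 and 0.10), Mthfd1 without bleomycin replicate 1 (0.09), and Sars, Wars, Phgdh, Shmt1 and Atf4 without PBS replicate 1 (-0.01, -0.01, -0.08, 0.06 and -0.03). TPM rescaling moved the median of all genes by 0.06. With single libraries left out, the log2 change reached 0.16 for Sars, 0.17 for Wars, 0.23 for Phgdh and 0.18 for Atf4 (without PBS replicate 2), and -0.18 for Shmt1 and -0.30 for Mthfd1 (without bleomycin replicate 1 and 2). The filter at 5 FPKM left 30 of the 37 members.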
